A study of Brachypodium distachyon and Sorghum bicolor and Panicum virgatum with 44 samples.

Results

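The circadian clock of Brachypodium distachyon, a small grass used as a laboratory model for cereals and bioenergy crops, was followed here through 7 genes in above ground tissue of plants that had been left unstressed or exposed to drought, cold, submergence or heat. The genes were taken by identifier and are given by the names assigned to those identifiers, since the expression files themselves hold identifiers and no names: LHY (Bradi3g16515.v3.1), PRR37 (Bradi1g16490.v3.1), PRR95 (Bradi4g36077.v3.1), TOC1 (Bradi3g48880.v3.1), GI (Bradi2g05226.v3.1), ELF3 (Bradi2g14290.v3.1) and LUX (Bradi2g62067.v3.1). They are 7 of the 34310 genes listed in each RNA-seq file, and all 7 were among the 23494 genes with enough reads to be tested.

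Plants of the inbred line Bd21 were grown in soil at a constant 20 °C with 20 h of light and 4 h of dark. Stress began on day 21, after 10 h of light, and lasted 12 h. Cold plants were moved to 4 °C, heat plants to 40 °C, drought plants were taken out of the soil and their roots blotted dry, and submerged plants stood wholly under tap water. Each of the 5 conditions was represented by 2 RNA-seq libraries labelled as separate biological replicates, and the number of plants behind a library is not given in the sources used here. By these times the stressed plants were harvested 22 h after lights on, which is 2 h into the dark period. The hour at which the control plants were harvested is not given in the sources used here. For transcripts that cycle over the day, effects of the hour and of the stress cannot be told apart in the comparisons with control. The 4 stresses were timed alike. Each stress was sampled at a single time, so a shift in daily timing cannot be told apart from a change in level.

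The plant clock is a loop of transcription factors that repress one another in turn through the day. In Arabidopsis, where the loop is best known, the MYB factor LHY accumulates around dawn and represses evening genes, the pseudo-response regulators follow one after another through the day and repress LHY, and an evening complex built from ELF3, LUX and a further protein closes the loop at night by repressing several of the day genes. The clock sets the daily timing of growth, photosynthesis and flowering, and it gates the response to cold and to water shortage. In cereals several of its parts are known as flowering-time loci: natural variants of PRR37 and ELF3 in barley alter the response to day length.

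Expression was read as an expected count, the number of reads that RSEM assigns to a gene, and as TPM, an abundance scaled to the same total in every library, which also corrects for transcript length and therefore allows levels of different genes to be set side by side. Libraries held from 9885357 to 17978729 expected counts. The only chlorophyll-binding protein gene that could be identified from the annotation used here, Bradi1g24870, lay between 546 and 4015 TPM in the 10 libraries and above 99.1% of tested genes in each, as green tissue would give, but this rests on a single marker. Fold changes, their standard errors (SE) and adjusted p-values came from the quasi-likelihood test of edgeR fitted to all 10 libraries, with Benjamini-Hochberg adjustment over the 23494 genes. A gene was called different at an adjusted p under 0.05. Fold changes use counts scaled with edgeR's factors, which ranged from 0.825 to 1.22, and so need not equal ratios of TPM. All 4 stresses were set against the same 2 control libraries, so their fold changes are not independent of one another.

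Every gene was well expressed, and the 7 differed widely in how far they moved. LHY spanned 16.3 to 666 TPM over the 10 libraries and PRR95 spanned 6.37 to 345 TPM, a ratio of highest to lowest of 41.0 and 54.2. PRR37, LUX, TOC1 and GI spanned ratios of 6.83, 7.87, 3.46 and 3.42, and ELF3 the smallest, 2.04. The range of the condition means of PRR95 on the log2 scale was larger than that of 98.3% of tested genes, that of LHY larger than 97.3%, and that of ELF3 larger than 26.9%.

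**Figure D1:**
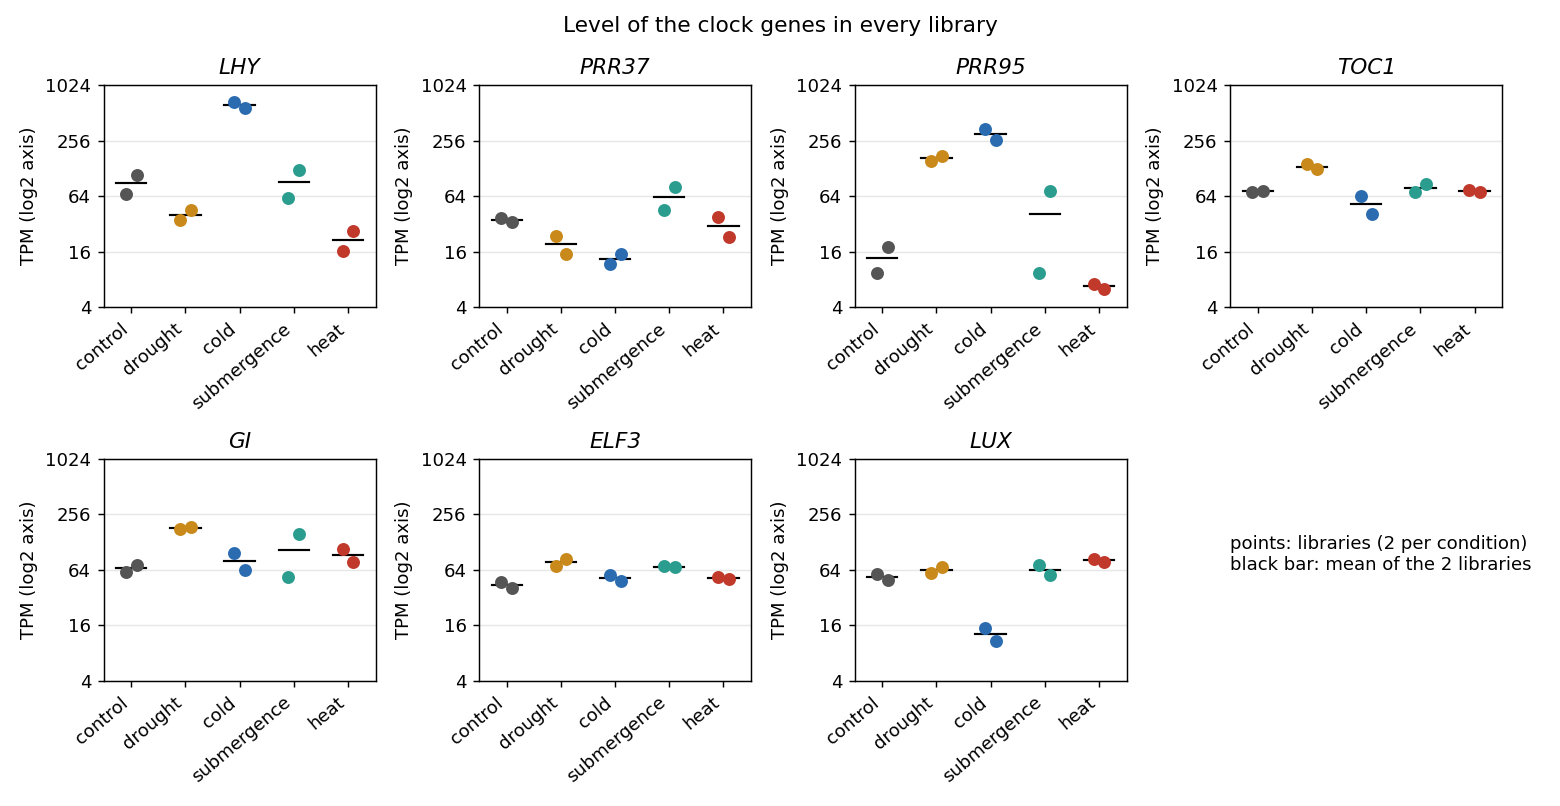
TPM (vertical axis, log2 spaced) of each clock gene in the 10 RNA-seq libraries by condition (horizontal axis). Points are single libraries and black bars are means of 2 libraries. LHY and PRR95 peak in cold at 573 to 666 and 261 to 345 TPM, LUX is lowest there at 10.7 to 14.9 TPM, and TOC1 and GI are highest in drought.

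LHY, the dawn-phased MYB repressor, rose in cold and fell in heat and drought. The 2 control libraries held 67.6 and 108 TPM. The cold libraries held 666 and 573 TPM, the heat libraries 16.3 and 27.0 TPM, and the drought libraries 35.6 and 44.9 TPM. Both cold libraries lay far above every other library, and both heat and both drought libraries lay below both controls. The rise in cold was 8.19-fold (log2 fold change 3.03, SE 0.38, edgeR adjusted p = 0.000519). The fall in heat was 4.49-fold (log2 fold change -2.17, SE 0.38, edgeR adjusted p = 0.00579), and that in drought was 1.89-fold (log2 fold change -0.92, SE 0.36, edgeR adjusted p = 0.0469). The call in heat rests on the second control library, without which the adjusted p was 0.0567, and the call in drought was lost without that library (adjusted p = 0.316) or without either drought library (0.212 and 0.083), and under RLE scaling (0.0706).

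Submerged plants held 60.9 and 123 TPM of LHY, a pair that enclosed the control pair (log2 fold change -0.17, SE 0.36, edgeR adjusted p = 0.745), with a sign that turned under library size scaling and limma. Ordered by mean TPM, LHY ran from cold (619 ± 66.0, SD, n = 2) through submergence (91.8 ± 43.7), control (87.8 ± 28.6) and drought (40.2 ± 6.60) to heat (21.6 ± 7.57). Submergence and control overlapped. Both submergence libraries lay above both drought libraries, but that difference did not pass the test (log2 difference of drought from submergence -0.74, SE 0.36, edgeR adjusted p = 0.102), while drought exceeded heat by a log2 difference of 1.25 (SE 0.37, edgeR adjusted p = 0.0127). Between the extremes, cold exceeded heat by a log2 difference of 5.20 (SE 0.43, edgeR adjusted p = 2.46e-05), or 36.8-fold.

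PRR95, a pseudo-response regulator of the day phase, rose in cold and in drought. It stood at 9.41 and 18.1 TPM in control, at 345 and 261 TPM in cold and at 155 and 176 TPM in drought. All 4 of these stress libraries lay above every control, submergence and heat library. The rise was 26.5-fold in cold (log2 fold change 4.73, SE 0.75, edgeR adjusted p = 0.00195) and 13.9-fold in drought (3.80, SE 0.72, edgeR adjusted p = 0.00116), larger in size than 98.7% and 92.6% of tested genes in those comparisons. Both cold libraries lay above both drought libraries, a difference that did not pass the test (log2 difference of drought from cold -0.93, SE 0.64, edgeR adjusted p = 0.241).

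In heat PRR95 held 7.22 and 6.37 TPM, below both controls. Its log2 fold change of -1.21 did not pass the test (SE 0.69, edgeR adjusted p = 0.254). It did pass in 3 of 19 alternative settings, with only heat and control fitted and without either submergence library. The heat levels were the lowest of any clock gene in any library, and they still rested on 155 and 179 expected counts. In submergence its libraries held 9.45 and 72.5 TPM, one at the control level and one well above it (log2 fold change 1.31, SE 0.67, edgeR adjusted p = 0.163).

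PRR37, the pseudo-response regulator whose barley counterpart governs the response to long days, moved the other way from PRR95 in cold. It stood at 37.4 and 33.8 TPM in control and at 11.8 and 15.03 TPM in cold, a 2.18-fold fall (log2 fold change -1.12, SE 0.28, edgeR adjusted p = 0.02). Both cold libraries were below both controls, but the call was lost without the first cold library (adjusted p = 0.126) and without either control library (0.0988 and 0.0788). Drought libraries held 23.4 and 15.1 TPM, also below both controls, and did not pass the test (log2 fold change -0.66, SE 0.28, edgeR adjusted p = 0.0622), although 9 of 19 alternative settings made that call. Heat libraries held 37.5 and 23.3 TPM, overlapping the controls in TPM though not in scaled counts. The heat value did not pass the test (log2 fold change -0.39, SE 0.28, edgeR adjusted p = 0.36).

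Submergence gave the highest PRR37 of any condition, 45.3 and 80.7 TPM. Against control this did not pass the test (log2 fold change 0.58, SE 0.28, edgeR adjusted p = 0.14). Against the other stresses it did: submergence exceeded cold by 3.24-fold (edgeR adjusted p = 0.00153), drought by 2.36-fold (0.00418) and heat by 1.95-fold (0.021). The last of these was lost without the second submergence library, without the second heat library and when only those conditions were fitted.

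TOC1, the pseudo-response regulator of the evening that represses LHY in Arabidopsis, rose in drought. Its controls held 71.6 and 73.5 TPM and its drought libraries 142 and 126 TPM, with no overlap, a 2.15-fold rise (log2 fold change 1.10, SE 0.20, edgeR adjusted p = 0.000799). Cold libraries held 63.8 and 41.0 TPM, submergence libraries 70.8 and 86.7 TPM and heat libraries 73.9 and 71.6 TPM. None of those 3 stresses passed the test, with log2 fold changes of -0.20 (SE 0.20), -0.12 (SE 0.20) and -0.15 (SE 0.20) in that order, and the sign in submergence and heat turned when counts were scaled by library size alone and with limma on TPM. Drought exceeded cold by 2.47-fold, heat by 2.38-fold and submergence by 2.34-fold (edgeR adjusted p = 0.000396, 0.000349 and 0.000565). The other 4 conditions, control included, gave no call among themselves.

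GI, a large plant-specific protein of the evening that links the clock to flowering, followed the same order of calls. It stood at 60.4 and 72.5 TPM in control and at 176 and 185 TPM in drought, the 2 highest libraries of all (3.16-fold, log2 fold change 1.66, SE 0.39, edgeR adjusted p = 0.00419). Cold libraries held 96.3 and 63.7 TPM and heat libraries 106 and 78.8 TPM, giving log2 fold changes of 0.53 (SE 0.38, edgeR adjusted p = 0.365) and 0.32 (SE 0.38, edgeR adjusted p = 0.605). Submergence libraries held 54.0 and 155 TPM, one below both controls and one above. Drought exceeded cold, heat and submergence by 2.19-fold, 2.54-fold and 2.41-fold (edgeR adjusted p = 0.0308, 0.0116 and 0.0181), and each of these calls was lost in 4 or 5 of 19 alternative settings, among them leaving out the second drought library.

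ELF3, the scaffold of the evening complex, rose in drought and, less firmly, in cold. It stood at 46.8 and 40.6 TPM in control, 70.8 and 83.0 TPM in drought and 55.9 and 48.0 TPM in cold. The drought and the cold pairs were both wholly above the control pair. The rise was 2.06-fold in drought (log2 fold change 1.04, SE 0.15, edgeR adjusted p = 0.000239) and 1.43-fold in cold (log2 fold change 0.51, SE 0.15, edgeR adjusted p = 0.038). The call in cold was lost in 11 of 19 alternative settings, including scaling by library size alone, where the log2 fold change was 0.24.

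Submergence held ELF3 at 69.8 and 67.8 TPM, above both controls, with a log2 fold change of 0.42 that narrowly missed the threshold (SE 0.15, edgeR adjusted p = 0.0617). Heat held it at 53.9 and 51.5 TPM (log2 fold change 0.12, SE 0.15, edgeR adjusted p = 0.624). Drought exceeded cold by 1.44-fold, submergence by 1.54-fold and heat by 1.89-fold (edgeR adjusted p = 0.0146, 0.00606 and 0.000479), and no pair among cold, submergence and heat was called.

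LUX, the DNA-binding member of the evening complex, fell in cold and passed the test in no other stress. It stood at 58.2 and 49.2 TPM in control and at 14.9 and 10.7 TPM in cold, a 3.49-fold fall (log2 fold change -1.80, SE 0.21, edgeR adjusted p = 0.000327). The 2 cold libraries were the lowest of the 10. Drought held 59.6 and 68.4 TPM, submergence 72.5 and 56.2 TPM and heat 84.3 and 78.7 TPM, with log2 fold changes of 0.48 (SE 0.20, edgeR adjusted p = 0.0594), 0.03 (SE 0.20, edgeR adjusted p = 0.926) and 0.45 (SE 0.20, edgeR adjusted p = 0.147). The drought value passed the test in 7 and the heat value in 2 of 19 alternative settings. Cold lay below drought by 4.86-fold, below heat by 4.77-fold and below submergence by 3.56-fold (edgeR adjusted p = 2.14e-05, 5.36e-05 and 0.000203), and those 3 stresses gave no call among themselves.

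**Figure D2:**
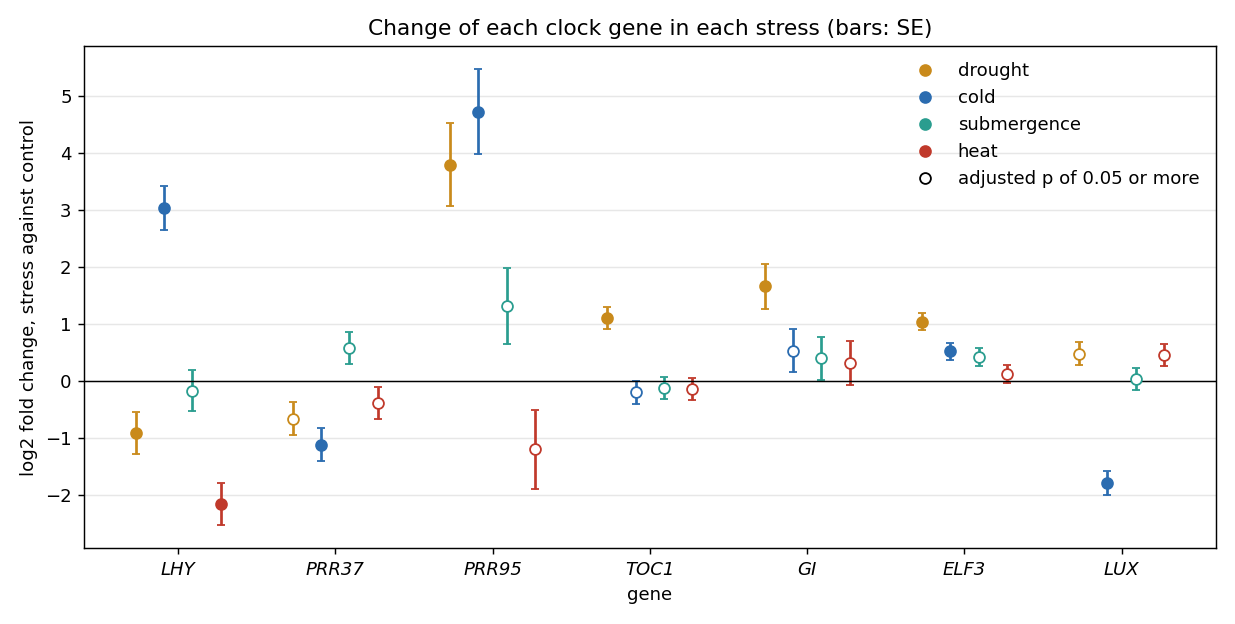
Log2 fold change of each clock gene in each stress against control (vertical axis) with its SE (bars), by gene (horizontal axis). Filled points have an edgeR adjusted p under 0.05 and open points do not. The largest rises are those of PRR95 in cold (4.73) and drought (3.80) and of LHY in cold (3.03), the largest falls those of LHY in heat (-2.17) and LUX in cold (-1.80), and every submergence point is open.

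Counted by stress, drought called 5 of the 7 clock genes: PRR95, GI, TOC1 and ELF3 rose and LHY fell. Drought also called 32.1% of all tested genes higher and 32.8% lower, so being called was common in this comparison and the count sets the clock genes little apart. The median size of the log2 fold change was 1.04 over the clock genes and 1.03 over all tested genes.

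Cold also called 5 of the 7, with LHY, PRR95 and ELF3 higher and LUX and PRR37 lower, where 12.2% of tested genes were called higher and 9.63% lower. The median size of the log2 fold change was 1.12 over the clock genes and 0.40 over all tested genes. Heat called LHY lower and no clock gene higher, beside 8.7% of tested genes lower and 8.21% higher, and the median sizes were 0.39 and 0.40. Only 2 of the 7 had an unadjusted p under 0.05 in heat, LHY and LUX.

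Submergence called none of the 7 with edgeR, where 14.9% of tested genes were called higher and 16.6% lower. ELF3 alone had an unadjusted p under 0.05 (0.021), and it was the only clock gene that DESeq2 and limma called. The median size of the log2 fold change was 0.39 over the clock genes and 0.50 over all tested genes. With 2 libraries a condition, a p that misses the threshold does not show that submergence left these genes at the control level.

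The submergence libraries differed from each other in several clock genes. The second held 7.17 times as much PRR95, 2.68 times as much GI, 1.86 times as much LHY and 1.67 times as much PRR37 as the first on the scaled count scale. For PRR95 that gap was larger than the gap between the same libraries in 99.9% of tested genes, and for GI larger than in 97.8%. TOC1, ELF3 and LUX differed by ratios of 1.14, 0.91 and 0.72. Wide gaps were not confined to submergence. In control, which every fold change against control uses, the second library held 1.98 times as much PRR95 and 1.64 times as much LHY. Those gaps were larger than in 96.9% and 92.8% of tested genes. The next widest control gap, that of GI, was larger than in 67.5%. For LHY in heat the ratio was 1.80, larger than in 93.05%. Without the first submergence library, 3 clock genes were called higher: PRR95 (log2 fold change 2.12, edgeR adjusted p = 0.00241), GI (0.93, 0.0303) and PRR37 (0.89, 0.0405). Without the second, none was called and the log2 fold changes of PRR95 and GI were -0.72 and -0.49.

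**Figure D3:**
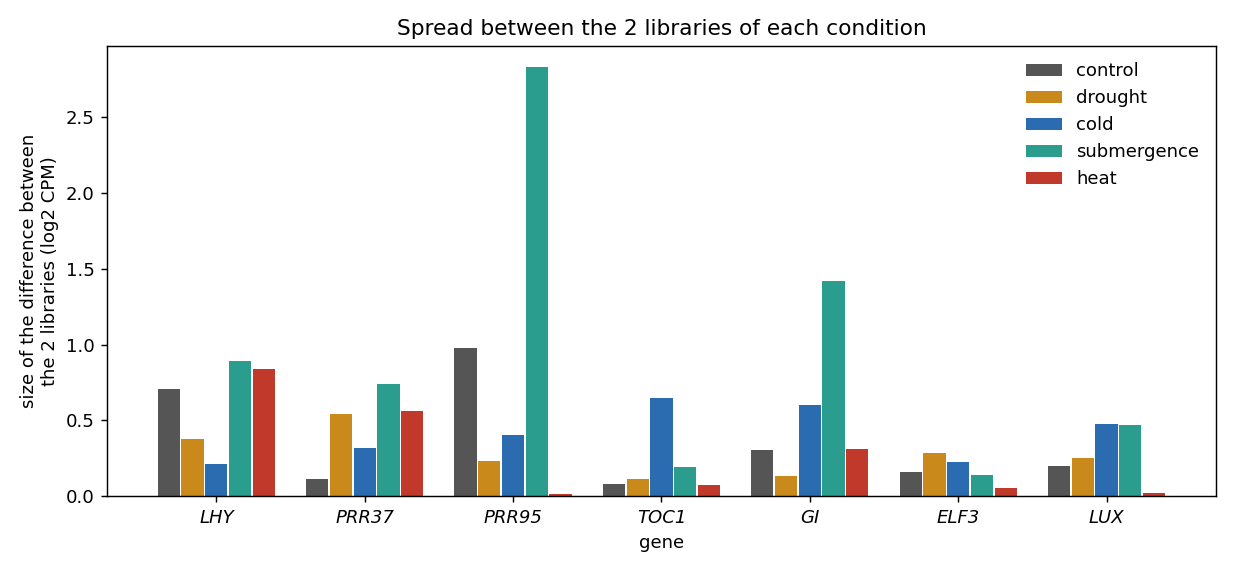
Size of the log2 difference in scaled counts (CPM) between the 2 libraries of a condition (vertical axis) for each clock gene (horizontal axis), coloured by condition. The tallest bars are those of PRR95 (2.83) and GI (1.42) in submergence, while PRR95 in heat and LUX in heat differ by 0.02.

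The 4 stresses, timed alike, were also compared with one another, by contrasts that leave the control level out. The control libraries still shared in the filter, the scaling and the estimate of spread of the single fit. The share of clock genes called lay near that of all tested genes in several of these comparisons, above all in drought against heat, cold against heat and submergence against heat, so the counts set the clock genes little apart. Drought and cold differed in 5 of the 7 clock genes, with TOC1, GI, ELF3 and LUX higher in drought and LHY 15.5-fold higher in cold, where 56.1% of all tested genes were called. Drought and submergence differed in 5 (58.5% of tested genes), with PRR95, TOC1, GI and ELF3 higher and PRR37 lower in drought. Drought and heat differed in 5 (67.6% of tested genes), namely LHY, PRR95, TOC1, GI and ELF3, all higher in drought, PRR95 by 32.1-fold.

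Cold and submergence differed in 4 (41.3% of tested genes), with LHY and PRR95 higher and PRR37 and LUX lower in cold. Cold and heat differed in 3 (42.2% of tested genes), with LHY and PRR95 higher and LUX lower in cold, PRR95 by 61.3-fold. Submergence and heat differed in 3 (39.1% of tested genes), with LHY, PRR37 and PRR95 higher in submergence. TOC1, GI and ELF3 were called in each comparison that included drought and in no comparison among cold, submergence and heat, and LUX was called in each comparison that included cold and in no other. PRR95 in heat was exceeded by all 3 other stresses. Among these calls, that of LHY in drought against heat was lost without the second drought or the first heat library and under library size scaling (log2 difference 0.81, adjusted p = 0.0673). That of ELF3 was lost in drought against cold without the second cold or the second drought library, and in drought against submergence without the second drought library, under library size scaling (log2 difference 0.14, adjusted p = 0.418) and with limma at either pseudocount (0.16 and 0.15, adjusted p = 0.339 in both). That of PRR95 in submergence against heat was lost without either heat library, with limma at either pseudocount, when only those conditions were fitted, and without the second submergence library, where the log2 difference was 0.49 in place of 2.52.

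The ratios of LHY to TOC1 and of GI to LHY differed between the conditions. In TPM, LHY stood at 10.4 and 14.0 times TOC1 in the cold libraries and at 0.945 and 1.47 times TOC1 in control. The same ratio was 0.251 and 0.357 in drought, 0.22 and 0.377 in heat, and 0.86 and 1.42 in submergence. Both cold libraries lay above every other library, the drought and heat libraries lay below both controls, and submergence had one library just below the control pair and one within it. With 2 libraries a condition these ratios are given without a test. As the harvest hour of the controls is not given, their differences from control cannot be assigned to the stress. GI stood at 4.94 and 4.12 times LHY in drought and at 6.54 and 2.92 times in heat, against 0.893 and 0.671 in control and 0.145 and 0.111 in cold. The gene with the highest TPM of the 7 was LHY in both cold libraries and GI in all drought and heat libraries.

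Correlations of the clock genes across the 10 libraries are given here as a description, since libraries of a condition share their treatment. Gaps between the libraries of a condition enter them too. LHY and LUX ran opposite to each other (Pearson's r = -0.935, Spearman's rho = -0.891, log2 CPM, n = 10), and over the 8 libraries left without cold r was -0.754. TOC1 and GI ran together (r = 0.827, rho = 0.648), as did GI and ELF3 (r = 0.748, rho = 0.636) and TOC1 and ELF3 (r = 0.739, rho = 0.406). Without the 2 drought libraries these 3 values dropped to 0.308, 0.214 and -0.18, so the likeness of these 3 genes rests on drought. LUX, the other evening gene, was less like them over the 10 libraries (r = 0.461 with TOC1, 0.131 with GI and 0.0357 with ELF3). Over the 8 libraries left without cold its r was 0.4, 0.296 and 0.508 in that order. LHY and TOC1, the opposed arms of the loop in Arabidopsis, had an r of -0.271 (rho = 0.0182).

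**Figure D4:**
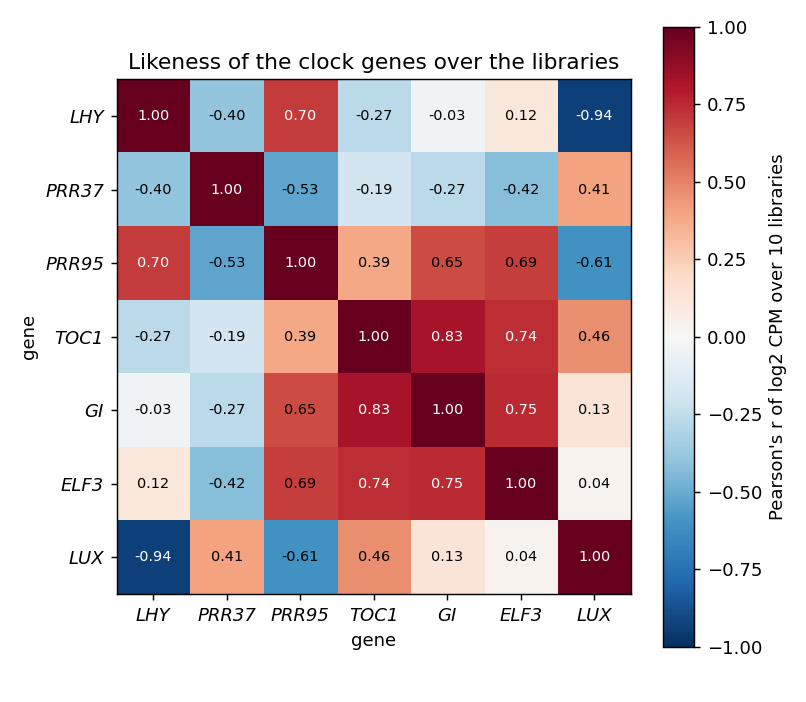
Pearson's r of log2 CPM over 10 libraries for each pair of the 7 clock genes (both axes), from -1 (blue) to 1 (red). The strongest negative cell is LHY with LUX (-0.94) and the strongest positive cell off the diagonal is TOC1 with GI (0.83).

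Small RNA control of the clock genes was looked for in the degradome, PARE, which sequences the 5′ ends of cleaved or decaying transcripts. Such ends arise from general RNA decay as well as from cuts guided by a microRNA, so reads at a predicted cut do not by themselves show that a microRNA made it. The deposited table of predicted microRNA sites in Brachypodium held 8 sites in 5 of the 7 genes and none in PRR37 or ELF3. PARE reads at the predicted cut were listed for 3 of the 8 sites, beside 37.8% of the 25863 sites in the table. They are shown with the microRNA that each was predicted for, the seed (bases 2 to 8 from the 5′ end) in capitals.
miR156b-5p and 7 others of its family, on LHY: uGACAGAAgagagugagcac
miR7744-3p, on GI: cAUCGACAacuuuugccauccuua
miR5183, on TOC1: uAUUUGGAcaaauuugaguca
The 3 seeds differ from one another.

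The LHY site lay at position 1240 of transcript Bradi3g16515.1, read in the first PARE library of cold plants. It held 14 TP10M, the normalised read unit of the PARE libraries, which was 0.146% of the PARE signal on that transcript. Of the 3 prominence criteria applied by the authors (an abundance of at least 10 TP10M, a top rank on the transcript and a large enough share of its signal), it passed the abundance criterion alone, which places it at Level 2. The miR156 family is best known for cutting transcripts of SPL factors, which control the change from juvenile to adult growth. The GI site, at position 4720 of Bradi2g05226.1, held 4 TP10M in the authors' first root PARE library, which was not among the samples used here. The TOC1 site, at position 2215 of Bradi3g48880.1, held 1 TP10M in the first PARE library of submerged plants. Those sites passed no criterion and stand at Level 1. Of sites with any PARE read in the table, 2.28% held at least as many reads as the LHY site. The LHY and GI sites were predicted by the program psRNATarget and not by TargetFinder. Their expectation scores, 4.5 and 5, were near or at the highest value the authors allowed. The TOC1 site was predicted by TargetFinder and not by psRNATarget. No clock gene site reached Level 3 or 4, the prominence that 197 sites of the table reached. The table gives 1 library for each site, so reads under stress and control could not be compared.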

How the data were processed

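Above ground tissue of Bd21 was sequenced with the ScriptSeq kit from Illumina. The authors mapped reads to the version v3.1 genome with STAR and quantified genes with RSEM. The submitters' processing notes give STAR 2.5.3a, RSEM 1.2.31 and Bowtie 0.12.7. The deposited values used are expected counts and TPM. The deposited PARE table gives abundance in TP10M, a share of the transcript's signal (a fraction), prediction scores and a prominence level from 0 to 4 set by the authors.

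The 7 genes, their lists and tests were chosen with earlier results of these data known. Expected counts were rounded (those of the 7 genes were whole), filtered with filterByExpr, scaled by TMM and tested in edgeR 4.0.16 (R 4.3.3), all 10 libraries in 1 fit with no block. Every gene has 2 libraries a condition, and its spread was estimated over all 5 conditions together and moderated across genes. A wide gap between the libraries of 1 condition therefore also enters the p-values of comparisons that do not involve it. Alternatives were DESeq2 1.42.0, limma 3.58.1 on log2(TPM + 1) and log2(TPM + 0.1), 3 other scalings, no filter, only the 2 groups compared, a replicate block and leaving out each library. Named genes were the 7 and, for each, the 2 other genes closest in Pearson correlation. A wider clock list, motif search and further tissue markers were not made because the reference gene list used here could not be matched to these identifiers, and coordinates were not used.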

Additional observations from a re-analysis of the deposited data

How the results depend on the processing

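Of 36 called values of the clock genes (11 of a stress against control and 25 between stresses), 24 kept their call in all 19 alternatives and none changed direction; 7 of the 11 against control kept it. Leaving out 1 library at a time gave 3 to 5 called genes in cold (5 with all), 4 to 7 in drought (5), 0 to 3 in submergence (0) and 0 to 2 in heat (1). Between stresses it gave 3 to 6 for drought against cold (5), 3 to 6 for drought against submergence (5), 3 to 5 for drought against heat (5), 4 to 5 for cold against submergence (4), 3 to 4 for cold against heat (3) and 1 to 4 for submergence against heat (3). Scaling by library size gave 3 calls for drought against heat, 2 in heat and 1 in submergence. DESeq2, RLE scaling and limma with either pseudocount each gave 1 call in submergence. Fitting only the 2 groups compared gave 3 calls in heat and 1 for submergence against heat. The replicate block gave 5, 4, 0 and 1 calls in drought, cold, submergence and heat. Over all tested genes the correlation of same-numbered libraries' deviations ran from -0.174 to 0.137, with 2 of 10 over 0.1. Across genes, same-numbered libraries thus shared little of their spread, which does not speak for single genes. LHY was higher in the second library in every condition but cold. With the block, LHY in drought had an edgeR adjusted p of 0.0156 in place of 0.0469. Whether same-numbered libraries were grown or harvested together is not given in the sources used here.

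Changes of sign were limited to values that were not called. Leaving out 1 library at a time moved GI from -0.49 to 0.93, PRR95 from -0.72 to 2.12, LHY from -0.69 to 0.22 and LUX from -0.22 to 0.25 in submergence, and TOC1 from -0.56 to 0.082 in cold. LHY in submergence became 0.018 and 0.017 with limma at pseudocounts of 1 and 0.1 and 0.043 with library size. TOC1 became 0.11 in submergence and 0.0041 in heat with limma at either pseudocount, and 0.080 and 0.011 with library size. Under library size scaling the median over all genes shifted by -0.284 (drought), -0.275 (cold), 0.202 (submergence) and 0.158 (heat) in log2 units, and the share of calls that were higher went from 49.5% to 39.1%, 55.9% to 28.8%, 47.4% to 66.8% and 48.5% to 69.9% in that order. Upper quartile scaling shifted drought by -0.255 and cold by -0.17, where that share was then 38.7%. The cause was not tested. With 2 libraries a condition, smaller changes may have gone uncalled.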

Other observations

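The genes nearest to LHY in Pearson correlation over the 10 libraries were Bradi2g59830 (r = 0.985) and Bradi5g20607 (r = 0.977), and those nearest to PRR95 were Bradi1g59975 (0.989) and Bradi2g49945 (0.974). No names were matched to these identifiers. For the other 5 clock genes the 2 nearest had an r from 0.954 to 0.994.

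LHY is annotated with 2 transcripts, and the mean transcript length that RSEM weighted by abundance was lowest in the cold libraries, at 2948 and 2977 bases. In the other 8 libraries it ranged from 3010 to 3113 bases. Which transcript was used was not tested.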
